A study of Homo sapiens with 8 samples.

Results

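The data hold 9 interferon-stimulated genes in ovarian cancer cells of 2 lines with and without heat: ISG15, HERC5, IFIT1, IFIT2, IFIT3, MX1, IFITM1, IFI6 and IFI27. They were taken as every probe of the signal table whose platform annotation carried one of these 9 symbols, which gave 13 of the 47231 probes, for 9 of the 20046 genes with a probe of a single symbol. Transcripts were measured on Illumina BeadChips in 8 samples of total RNA, 2 for each of 4 groups: SKOV3 at 46 °C (hyperthermia), SKOV3 at 37 °C (control), A2780 at 46 °C and A2780 at 37 °C. Both are established human cell lines labelled as ovarian cancer, and no other treatment or genetic change is named for any group. How long the cells were heated, when they were collected and whether replicates are separate cultures is not in the labels. The p-values below therefore set each difference against the spread between these samples, which may be technical.

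Interferons are secreted proteins that infected or damaged cells release. They bind receptors on the same and on neighbouring cells, and kinases of the JAK family then activate transcription factors that bind the interferon-stimulated response element (ISRE) in front of target genes. The proteins made from these genes act against viruses, and tumour cells can carry some of them at a raised level without added interferon.

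Of the 9 genes, 7 passed the filter on dim probes and were tested, and the larger differences among them lay between the lines. Of these 7, 6 were higher in SKOV3 than in A2780 at 37 °C, where 15.6% of all 14189 genes tested were higher, and 5 were higher at 46 °C, where 12.3% were. ISG15, IFITM1, IFI6 and HERC5 had the larger differences. With heat IFIT1 fell in both lines, IFIT2 rose in A2780, and no other tested member passed in either line. This made 1 of 7 in SKOV3, where 3.18% of all genes changed, and 2 of 7 in A2780, where 4.52% did. The rise of IFIT2 lost its call under median scaling and in some fits that left out 1 array. MX1 and IFI27, each with 1 probe, were not above background on any array.

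Values below are normalized log2 intensities, except where a signal is named. A change or difference is given in log2 units with its standard error after ± (limma fit over all 8 arrays, n = 2 per group), and a gene is said to have risen, fallen or differed where the p-value, adjusted by Benjamini-Hochberg over the 14189 genes, was under 0.05. The level of each probe is compared with itself between groups, never with that of another probe. In RNA of whole cultures, fewer cells that carry a transcript and less of it per cell cannot be told apart.

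The arrays had median signals of 114 to 144. Between 36.9% and 39.1% of probes lay above background on each, except A2780 37 °C replicate 2, where 41.9% did and where the upper quartile of the signal was 317 against 181 to 243 on the others. The temperature labels were borne out by the heat-shock genes: at 46 °C the inducible HSP70 chaperone HSPA1A exceeded its control level, which did not reach background, at least 60.5-fold in SKOV3 and at least 100.5-fold in A2780. Of 8 epithelial markers, KRT18 was above background on all 4 SKOV3 arrays and no A2780 array, EPCAM on all 4 SKOV3 and 3 A2780 arrays, KRT19 on 2 SKOV3 arrays, and KRT7, KRT8, CDH1, CLDN3 and CLDN4 on none. PAX8, WT1, MUC16 and MSLN, which mark many ovarian tumours, were not above background on any array of either line.

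Promoters of 8 of the 9 genes were given in the RefSeq table of build GRCh38.p14, which holds 12 starts for them; no promoter of IFIT2 is shown. The window ran over 250 bases before and 50 bases from each start. The ISRE core, written GAAANNGAA and looked for on both strands with overlapping matches counted, was found in 11 of the 12 promoters and in at least 1 promoter of each of the 8 genes, against 8.11% of all 35116 promoters of the table. The promoters of the tested members are shown because the ISRE is what these genes share by sequence and because they include both the genes that differed between the lines and IFIT1, which did not. Each stretch covers 160 bases before the start and 10 from it, 5′ to 3′ on the gene's strand, with ISRE cores on either strand in capitals.
ISG15: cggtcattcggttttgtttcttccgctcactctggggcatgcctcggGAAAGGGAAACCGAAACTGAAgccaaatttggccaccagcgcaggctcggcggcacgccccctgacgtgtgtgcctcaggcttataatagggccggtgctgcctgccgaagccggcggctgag
HERC5: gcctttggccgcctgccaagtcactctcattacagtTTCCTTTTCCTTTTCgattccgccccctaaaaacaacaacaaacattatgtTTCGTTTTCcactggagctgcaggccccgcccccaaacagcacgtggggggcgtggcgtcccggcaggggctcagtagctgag
IFIT1: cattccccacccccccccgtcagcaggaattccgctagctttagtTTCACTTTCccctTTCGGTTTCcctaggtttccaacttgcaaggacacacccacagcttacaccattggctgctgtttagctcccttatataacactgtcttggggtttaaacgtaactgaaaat
IFIT3: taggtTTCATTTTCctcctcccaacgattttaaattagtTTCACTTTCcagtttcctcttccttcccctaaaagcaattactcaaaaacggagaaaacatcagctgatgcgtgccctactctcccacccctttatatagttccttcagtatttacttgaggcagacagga
IFIT3 (start further along): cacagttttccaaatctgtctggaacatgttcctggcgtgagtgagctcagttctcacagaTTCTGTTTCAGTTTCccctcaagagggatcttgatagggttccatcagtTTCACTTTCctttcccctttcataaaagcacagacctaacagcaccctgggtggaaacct
IFITM1: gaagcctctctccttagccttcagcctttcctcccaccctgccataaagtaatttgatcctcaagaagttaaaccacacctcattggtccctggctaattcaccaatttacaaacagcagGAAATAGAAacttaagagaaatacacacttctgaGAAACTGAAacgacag
IFI6: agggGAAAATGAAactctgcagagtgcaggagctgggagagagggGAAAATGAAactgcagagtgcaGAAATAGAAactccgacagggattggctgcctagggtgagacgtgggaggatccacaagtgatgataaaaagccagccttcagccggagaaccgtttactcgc

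In that build the ISG15 stretch lies at chr1:1013337-1013506 and the IFI6 stretch at chr1:27672183-27672352, on the minus strand; all others shown are on the plus strand. The HERC5 stretch is chr4:88456959-88457128, that of IFIT1 is chr10:89392463-89392632 and that of IFITM1 is chr11:313880-314049. The IFIT3 stretches are chr10:89327837-89328006 and chr10:89332369-89332538. The cores of ISG15 overlap in a single run that begins 113 bases before the start, whereas those of IFIT1 lie apart, beginning at 115 and 102 bases before it. In IFITM1 the cores begin 40 and 6 bases before the start, and in IFI6 there are 3 that do not overlap. The MX1 promoters held no core inside the stretch of this length, and any matches fell outside it. The gamma-activated site, written TTCNNNGAA, was in 4 of the 12 promoters, those of IFITM1, IFI27 at both starts and MX1 at 1 of 3 starts, against 7.66% of all promoters. A heat shock element of 3 alternating units was in 0 of the 12, against 0.49% of all. The windows of the 2 IFI27 starts overlap, so part of the same sequence is counted more than once for each of these motifs. A match describes the letters of the window and shows no binding.

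The ISG15 system comprises a ubiquitin-like protein and the enzymes that join it to other proteins. ISG15 itself had 10.95 and 10.70 in SKOV3 at 46 °C, 10.72 and 10.75 in SKOV3 at 37 °C, 8.60 and 8.56 in A2780 at 46 °C and 8.48 and 8.62 in A2780 at 37 °C. All SKOV3 arrays lay above all A2780 arrays, and within each line the heated and control arrays overlapped. ISG15 was higher in SKOV3 by 2.18 ± 0.13 at 37 °C (4.54-fold, adjusted p = 1.82e-08) and by 2.24 ± 0.13 at 46 °C (4.74-fold, adjusted p = 1.6e-08). Its change with heat was 0.09 ± 0.13 in SKOV3 (adjusted p = 0.821) and 0.03 ± 0.13 in A2780 (adjusted p = 0.951). The A2780 value depended on the scaling: with median scaling it was -0.53 (adjusted p = 0.0335), on a scale where the median of all genes was -0.28.

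HERC5, the main ligase that attaches ISG15 in human cells, had 9.64 and 10.08 in SKOV3 at 46 °C, 9.63 and 9.81 in SKOV3 at 37 °C, 8.75 and 8.88 in A2780 at 46 °C and 8.48 and 8.14 in A2780 at 37 °C. The lines did not overlap. In A2780 both heated arrays lay above both control arrays, while in SKOV3 the temperatures overlapped. The difference between the lines was 1.41 ± 0.17 at 37 °C (adjusted p = 2.01e-05) and 1.05 ± 0.17 at 46 °C (adjusted p = 0.000342). With heat HERC5 changed by 0.14 ± 0.17 in SKOV3 (adjusted p = 0.762) and by 0.50 ± 0.17 in A2780 (adjusted p = 0.116), neither past the threshold, and the A2780 value turned to -0.06 under median scaling.

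**Figure D1:**
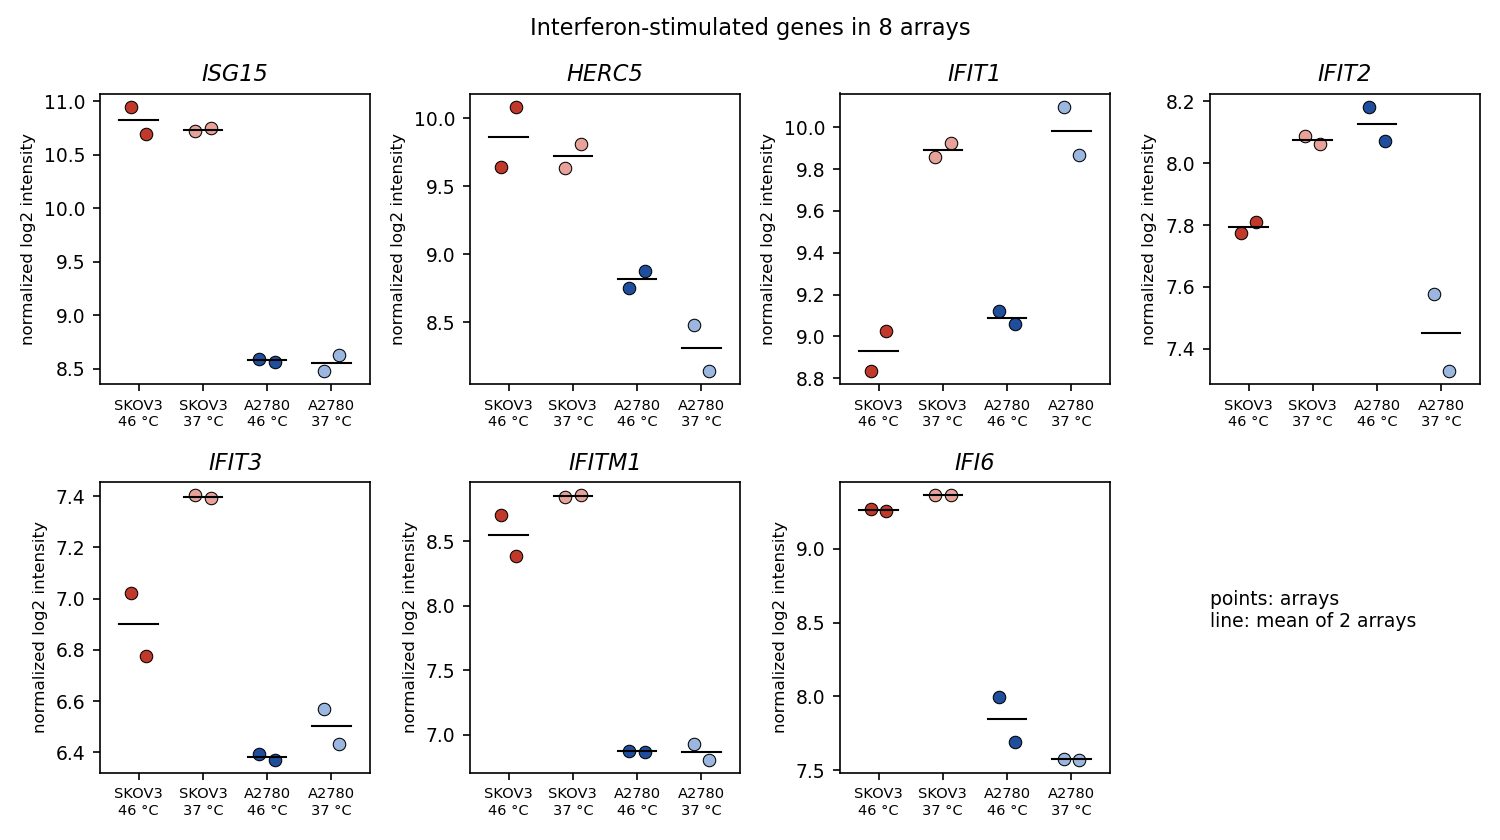
Normalized log2 intensity (vertical axes, a separate range for each gene) of the 7 tested members on each array, in SKOV3 at 46 °C and 37 °C and A2780 at 46 °C and 37 °C; points are arrays and the line is the mean of 2 arrays. ISG15, HERC5, IFITM1, IFI6 and IFIT3 are higher on all SKOV3 arrays than on all A2780 arrays, IFIT1 is lower at 46 °C in both lines, and IFIT2 is lowest in A2780 at 37 °C.

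The IFIT proteins bind foreign RNA. IFIT1 (probe ILMN_1707695), which recognises viral RNA by its unusual cap or end and blocks its translation, had 8.83 and 9.02 in SKOV3 at 46 °C, against 9.86 and 9.92 in SKOV3 at 37 °C. In A2780 it had 9.12 and 9.06 at 46 °C, against 10.10 and 9.87 at 37 °C. In both lines the heated arrays lay clear below the controls. The lines overlapped at 37 °C, and at 46 °C the SKOV3 values lay just below those of A2780. IFIT1 fell by 0.96 ± 0.13 in SKOV3 (1.95-fold lower, adjusted p = 0.000722) and by 0.89 ± 0.13 in A2780 (1.86-fold lower, adjusted p = 0.00118). The difference between these changes was -0.07 with a 95% interval of -0.48 to 0.34. Between the lines IFIT1 differed by -0.09 ± 0.13 at 37 °C (adjusted p = 0.674) and -0.16 ± 0.13 at 46 °C (adjusted p = 0.453).

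The other IFIT1 probe, ILMN_1699331, gave a different account and was much dimmer against its background. Its values were 6.61 and 6.55 in SKOV3 at 46 °C and 6.80 and 6.79 in SKOV3 at 37 °C, and it was not above background on any A2780 array. Its changes with heat, -0.22 ± 0.14 in SKOV3 (adjusted p = 0.554) and -0.28 ± 0.14 in A2780 (adjusted p = 0.338, background on all 4 arrays), had the same sign and did not pass. Between the lines, SKOV3 exceeded A2780 at least 1.32-fold at 37 °C (adjusted p = 0.0264) and at least 1.07-fold at 46 °C (adjusted p = 0.0164) by this probe, where the brighter probe showed no difference past the threshold. The fall of IFIT1 with heat therefore stands on 1 of its 2 probes.

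IFIT2, a partner of IFIT1 that binds RNA and lowers translation, had 7.77 and 7.81 in SKOV3 at 46 °C, against 8.09 and 8.06 in SKOV3 at 37 °C. In A2780 it had 8.18 and 8.07 at 46 °C, against 7.58 and 7.33 at 37 °C. The heated arrays thus lay below the controls in SKOV3 and above them in A2780, with no overlap in either line. IFIT2 rose by 0.67 ± 0.13 in A2780 (1.60-fold, adjusted p = 0.0082) and changed by -0.28 ± 0.13 in SKOV3 (adjusted p = 0.329). The test of the difference between these changes gave -0.96 ± 0.18 with a 95% interval of -1.35 to -0.56. Its adjusted p from limma was 0.0762, so a difference between the responses was not called. In the fits that left out 1 array of A2780 the rise ranged from 0.55 to 0.80, and it kept its call without A2780 37 °C replicate 1 (0.80, adjusted p = 0.00647) but not without the others: without A2780 37 °C replicate 2, the bright array, it was 0.55 (adjusted p = 0.096), without A2780 46 °C replicate 1 it was 0.62 (adjusted p = 0.11) and without A2780 46 °C replicate 2 it was 0.73 (adjusted p = 0.0516). Under median scaling it was 0.19 (adjusted p = 0.373), or 0.47 above the median of all genes.

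At 37 °C IFIT2 was higher in SKOV3 by 0.62 ± 0.13 (adjusted p = 0.0025), a comparison that uses the same A2780 control arrays as the rise with heat. At 46 °C the difference was -0.33 ± 0.13 (adjusted p = 0.0814). The order of its group means was A2780 at 46 °C, SKOV3 at 37 °C, SKOV3 at 46 °C and A2780 at 37 °C, and the values of the higher 2 groups overlapped.

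IFIT3, which steadies the IFIT complex with IFIT1, had 7.02 and 6.78 in SKOV3 at 46 °C, 7.40 and 7.39 in SKOV3 at 37 °C, 6.39 and 6.37 in A2780 at 46 °C and 6.57 and 6.43 in A2780 at 37 °C. The A2780 46 °C arrays were not above background. IFIT3 was higher in SKOV3 by 0.90 ± 0.13 at 37 °C (1.86-fold, adjusted p = 0.000144) and, against the A2780 background, by at least 1.34-fold at 46 °C (adjusted p = 0.01). With heat it changed by -0.50 ± 0.13 in SKOV3, just short of the threshold (adjusted p = 0.06), and past it without SKOV3 46 °C replicate 1 (-0.62, adjusted p = 0.0348). In A2780 the change was -0.12 ± 0.13 (adjusted p = 0.7). Its other 2 probes lay near background: ILMN_1664543 was above background on 1 of 8 arrays, and ILMN_1701789 on no A2780 array at 46 °C. At 37 °C, where ILMN_1701789 was above background on all 4 arrays, it differed by 0.34 (adjusted p = 0.0887).

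**Figure D2:**
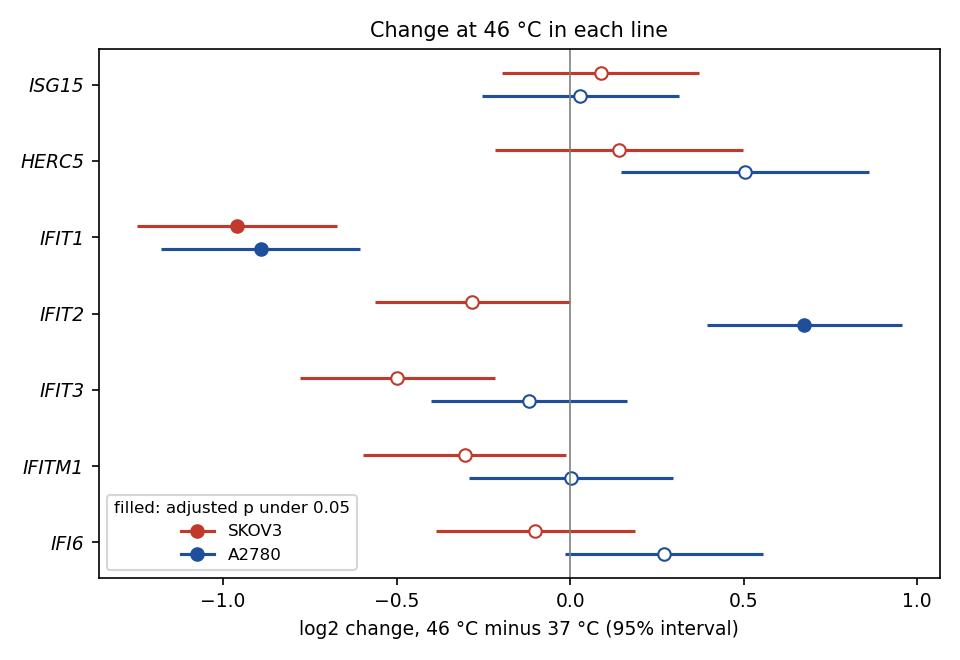
Change of each tested member at 46 °C (horizontal axis, log2 of 46 °C minus 37 °C; bars are 95% intervals of the fit, filled points have an adjusted p under 0.05) in SKOV3 and A2780. IFIT1 fell in both lines, by 0.96 in SKOV3 and 0.89 in A2780, and IFIT2 rose by 0.67 in A2780; the other 11 points are open.

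Of the members that code for membrane proteins, IFITM1 and IFI6 could be tested. IFITM1, which hinders the fusion of viruses with cell membranes, had 8.70 and 8.39 in SKOV3 at 46 °C, 8.84 and 8.86 in SKOV3 at 37 °C, 6.87 and 6.86 in A2780 at 46 °C and 6.93 and 6.81 in A2780 at 37 °C. The lines were far apart, and in SKOV3 the heated arrays were below the controls without overlap. IFITM1 was higher in SKOV3 by 1.98 ± 0.14 at 37 °C (3.95-fold, adjusted p = 7.39e-08) and by 1.68 ± 0.14 at 46 °C (3.20-fold, adjusted p = 4.83e-07). Its change with heat was -0.30 ± 0.14 in SKOV3 (adjusted p = 0.311) and 0.0025 ± 0.14 in A2780 (adjusted p = 0.997).

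IFI6, a small membrane protein that protects cells from apoptosis and hinders some viruses, had 9.27 and 9.26 in SKOV3 at 46 °C, 9.36 and 9.36 in SKOV3 at 37 °C, 7.996 and 7.69 in A2780 at 46 °C and 7.58 and 7.57 in A2780 at 37 °C. Heated arrays lay just below the controls in SKOV3 and above them in A2780. The lines differed by 1.79 ± 0.13 at 37 °C (3.46-fold, adjusted p = 1.7e-07) and by 1.42 ± 0.13 at 46 °C (2.67-fold, adjusted p = 2.16e-06). Heat changed it by -0.10 ± 0.13 in SKOV3 (adjusted p = 0.788) and by 0.27 ± 0.13 in A2780 (adjusted p = 0.311). Its second probe showed a smaller difference between the lines, 0.88 ± 0.20 at 37 °C (adjusted p = 0.00436) and 0.31 ± 0.20 at 46 °C (adjusted p = 0.322), and at 46 °C its values overlapped between the lines.

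MX1, a GTPase that traps viral particles, and IFI27, a mitochondrial protein often used as a marker of interferon exposure, gave no measurable level. The log2 ratio of the MX1 signal to the background level of its array lay between -0.40 and -0.17 over the 8 arrays, and that of IFI27 between -0.37 and -0.18. Both were removed by the filter and were not tested. Over all 13 probes, 7 were above background on every array, 4 on some arrays and 2, those of MX1 and IFI27, on none.

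**Figure D3:**
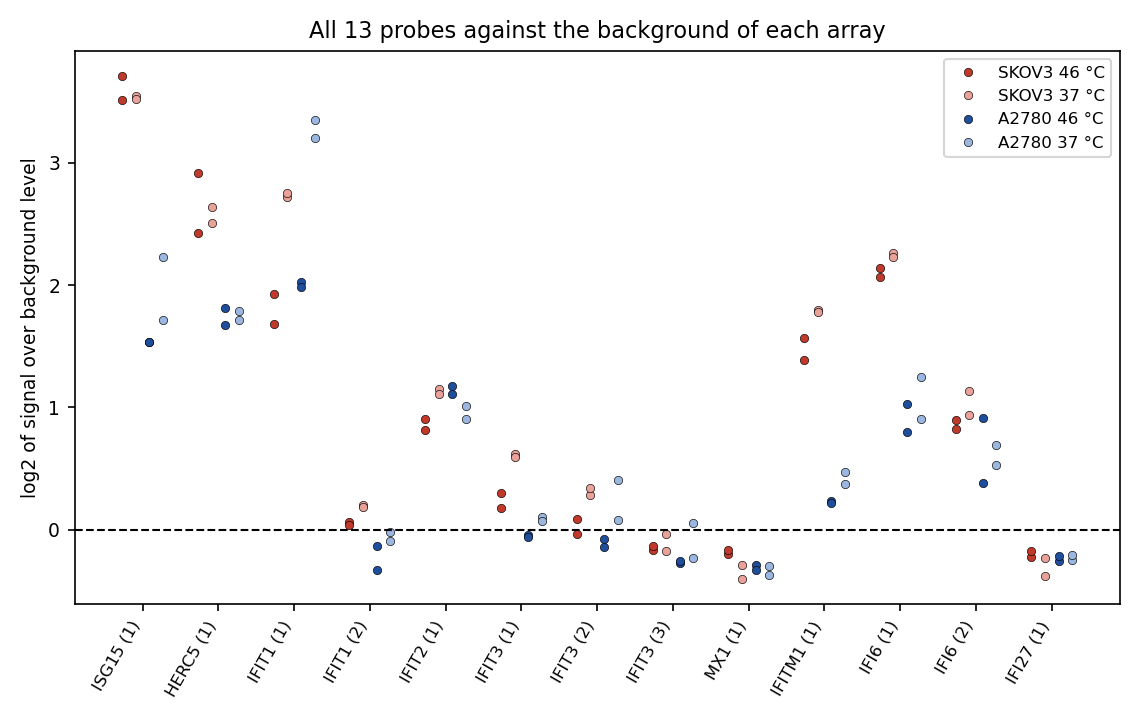
Log2 of the signal over the background level of its own array (vertical axis; dashed line at 0 is the background level) for the 13 probes on the 8 arrays; numbers in brackets count the probes of a gene. MX1 and IFI27 lie below the line on all arrays, as does the IFIT1 probe (2) on all A2780 arrays, and heights of different probes are not comparable as transcript levels.

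Counted together, heat moved 1 of the 7 tested members in SKOV3, lower, where 3.18% of all genes changed (1.5% rose and 1.68% fell). In A2780 it moved 2, 1 higher and 1 lower, where 4.52% of all genes changed (2.23% rose and 2.29% fell). The median change of the 7 was -0.28 in SKOV3, against -0.023 over all genes, and 0.029 in A2780, against -0.011. For the difference between the heat responses of the lines, limma called 0 of 7 members and 0.0987% of all genes (0.0282% higher and 0.0705% lower); 1 member, IFIT2, had an unadjusted p under 0.05, as did 8.54% of all genes. At an unadjusted p under 0.05 the heat response counted 4 of 7 members in SKOV3, where 15.1% of all genes did so, and 3 of 7 in A2780, where 18.1% did.

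The line comparison had a median difference of 1.41 over the 7 members at 37 °C, against 0.0098 over all genes, and of 1.05 at 46 °C, against 0.0047. Of all genes 29.3% differed in either direction at 37 °C and 24% at 46 °C, so a difference between these lines was common. No tested member was lower in SKOV3, where 13.8% of all genes were at 37 °C and 11.8% at 46 °C. With median scaling, which put the median of all genes at -0.23 at 37 °C, IFIT1 was lower in SKOV3 (-0.62, adjusted p = 0.00531), IFIT2 no longer passed (0.18, adjusted p = 0.414) and the other 5 stayed higher.

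**Figure D4:**
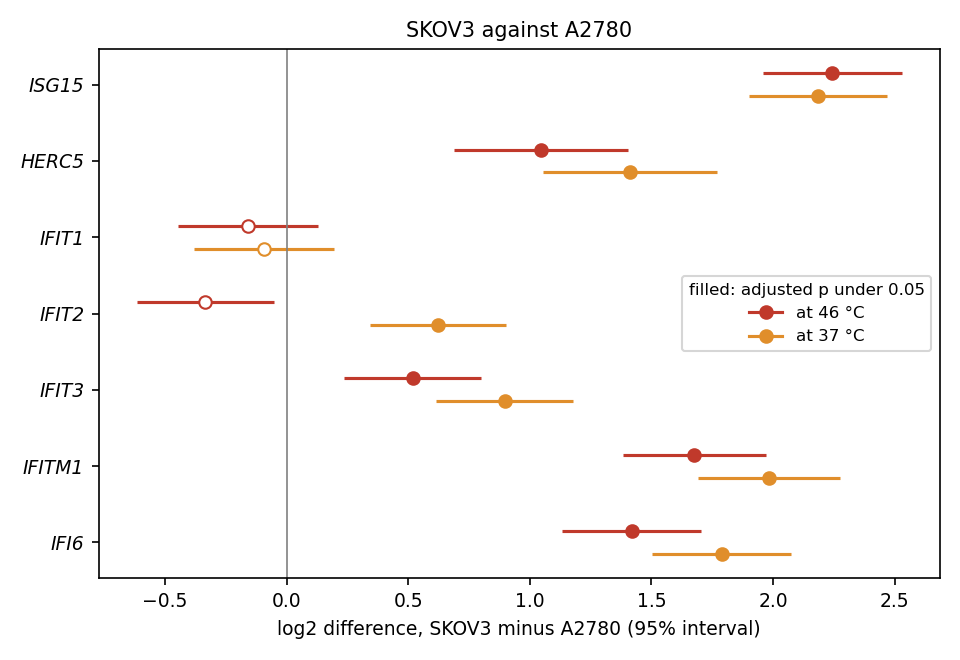
Difference between the lines (horizontal axis, log2 of SKOV3 minus A2780; bars are 95% intervals of the fit, filled points have an adjusted p under 0.05) at 46 °C and at 37 °C for each tested member. ISG15, HERC5, IFIT3, IFITM1 and IFI6 were higher in SKOV3 at both temperatures, IFIT2 at 37 °C, and IFIT1 at neither.

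The wider interferon pathway was described with 8 lists of its ligands, receptors, signalling factors and targets. Of their 92 tested genes, 33 (35.9%) differed between the lines at 37 °C, against 29.3% of all genes, of which 15.6% were higher in SKOV3 and 13.8% lower. Of 21 interferon genes on the array, 20 were not above background on any array, among them IFNB1, IFNG and IFNL1, and IFNW1 was above it on 1. Of 6 receptor chains tested, IL10RB was higher in SKOV3 at 37 °C (0.62), and IFNGR2 (-0.84) and IFNAR2 (-0.62) were lower. Of 9 kinases and transcription factors tested, 3 were higher in SKOV3 at 37 °C and none lower: IRF1, a transcription factor that is itself induced by interferon (1.85 ± 0.15, adjusted p = 3.68e-07), IRF3, which acts downstream of nucleic acid sensors (0.77), and the kinase TYK2 (0.48).

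Among 10 tested sensors of foreign nucleic acid and their adaptors, TICAM1 was higher in SKOV3 (1.34), while TRIM25 (-0.98) and IKBKE (-0.75) were lower. IFIH1, the MDA5 sensor of double-stranded RNA, was not above background in SKOV3 and at least 1.20-fold lower there. Besides ISG15 and HERC5, 4 genes of ISG15 conjugation were tested, and 3 were higher in SKOV3: UBE2L6, the conjugating enzyme (1.78 ± 0.15, adjusted p = 7.73e-07), USP18, which removes ISG15 (1.66 ± 0.17, adjusted p = 5.74e-06), and HERC6 (1.07). TRIM25, also in the list of sensors, was the lower member. The median of this list was 1.36, from the 4 genes tested. UBA7, also in this list, was not above background on any array and was not tested.

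Of 34 other interferon-stimulated genes tested, 11 were higher and 2 lower in SKOV3 at 37 °C, against 15.6% and 13.8% of all genes, and their median was 0.11. The list held 50 genes. Among those not tested, MX2, OAS2 and OASL were not above background on any array, nor was RSAD2 among those tested. NMI (1.97) and IFITM2, a relative of IFITM1 (1.34), were higher, as was HELZ2, which was not above background in A2780 and at least 1.91-fold higher in SKOV3. BST2, or tetherin, which holds virus particles at the cell surface, ran the other way: it was lower in SKOV3 (-2.35 ± 0.19, adjusted p = 4.63e-07), as was the RNA-activated kinase EIF2AK2 (-0.75). In MHC class I presentation, 6 of 16 tested genes were higher in SKOV3 and none lower, led by TAP1, a peptide transporter (2.62 ± 0.14, adjusted p = 4.23e-09), and PSME1, a proteasome activator (1.45). TAPBP (0.73) and TAPBPL, which was not above background in A2780 (at least 1.14-fold), were higher too. Of 11 tested brakes on the pathway, the phosphatase PTPN6 was higher (0.95). In the lists of receptors, sensors, ISG15 conjugation and other interferon-stimulated genes, some members were higher and others lower in SKOV3.

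At 46 °C 32 of the 92 genes (34.8%) differed between the lines, against 24% of all genes, of which 12.3% were higher in SKOV3 and 11.8% lower. Of the other interferon-stimulated genes 11 were higher in SKOV3 and 3 lower, of MHC class I presentation 7 were higher and 0 lower, and of ISG15 conjugation 3 were higher and 1 lower. The receptors counted 0 higher and 2 lower, the signalling factors 2 and 0, the sensors 1 and 1, the brakes 2 and 0, and the ligands none. BST2 (-2.69), TAP1 (2.62) and USP18 (2.00) kept their directions.

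**Figure D5:**
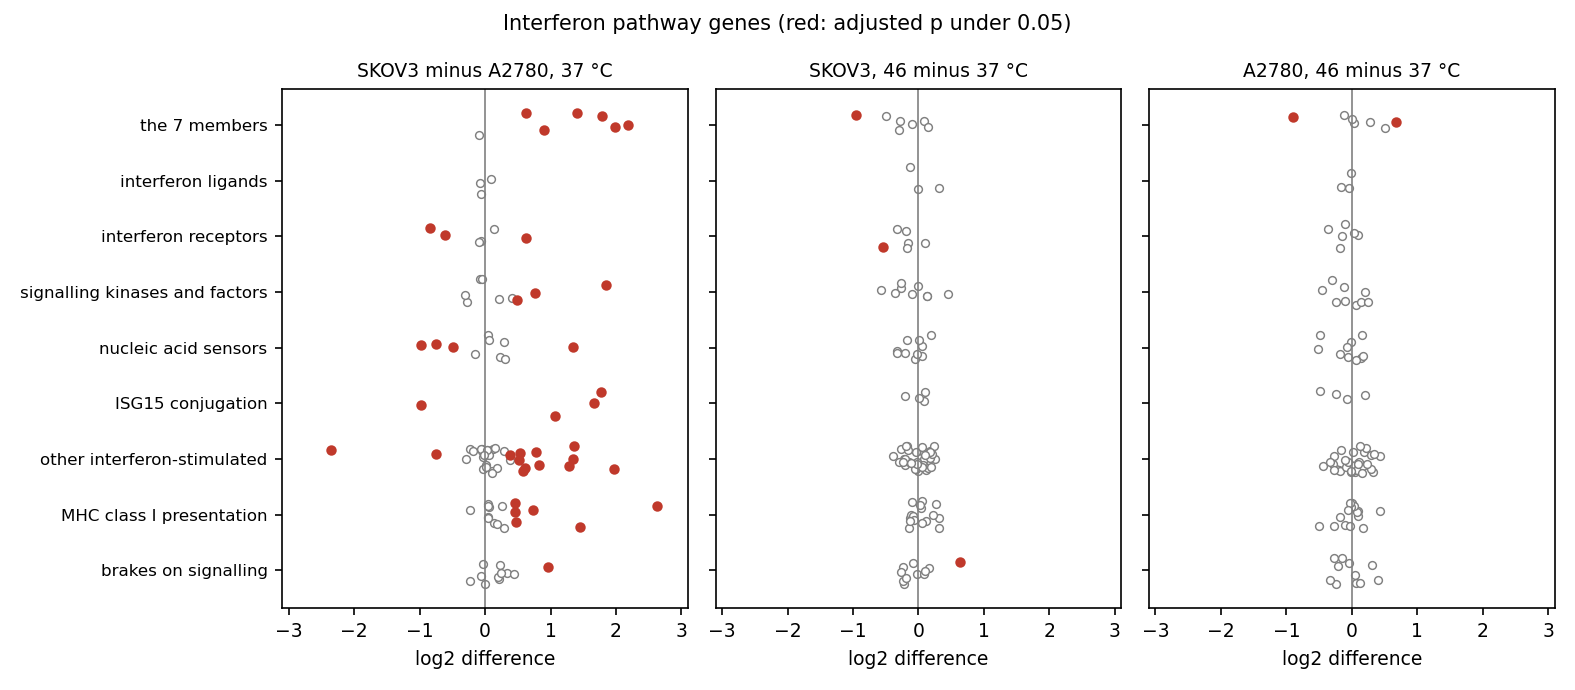
Log2 differences (horizontal axes) of the 7 tested members and of every tested gene of 8 pathway lists, for SKOV3 minus A2780 at 37 °C, for 46 °C minus 37 °C in SKOV3 and for 46 °C minus 37 °C in A2780; each point is a gene, red where the adjusted p was under 0.05. Red points lie on both sides of 0 between the lines, with 11 higher and 2 lower among 34 other interferon-stimulated genes, and are few with heat.

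With heat 2 of the 92 genes changed in SKOV3 (2.17%, against 3.18% of all genes) and 0 in A2780 (against 4.52%). In SKOV3 the receptor chain IL10RB fell (-0.54 ± 0.13, adjusted p = 0.0329) and SOCS3, a feedback inhibitor, rose (0.63 ± 0.15, adjusted p = 0.0366), and limma called no other gene of the 8 lists in either line. The genes with an unadjusted p under 0.05 in A2780 were 0 of 3 ligands, 1 of 6 receptors, 1 of 9 signalling factors, 2 of 10 sensors, 1 of 4 in ISG15 conjugation, 6 of 34 other interferon-stimulated genes, 2 of 16 in MHC class I presentation and 3 of 11 brakes, where 18.1% of all genes had one. In SKOV3, where 15.1% of all genes had one, they were 1 ligand, 2 receptors, 3 signalling factors, 1 sensor, 0 genes of ISG15 conjugation, 2 other interferon-stimulated genes, 1 gene of MHC class I presentation and 1 brake. IRF1 changed by -0.57 in SKOV3 (adjusted p = 0.0559) and 0.14 in A2780 (adjusted p = 0.688), and IRF9, a DNA-binding factor of the pathway, by -0.36 (adjusted p = 0.203) and -0.46 (adjusted p = 0.0772).

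Of the tested cell type markers, 5 of 6 for fibroblasts were lower in SKOV3 at 37 °C, against 13.8% of all genes. Of 4 epithelial markers 2 were higher, against 15.6% of all genes. Among 5 leukocyte and 4 plasmacytoid dendritic markers 1 of each was lower, and the 1 endothelial marker tested was not called. Above background on at least 1 array were 3 of 8 epithelial markers and 1 of 4 endothelial markers. Plasmacytoid dendritic cells are strong producers of interferon. Of their 5 markers, TCF4 was above background on 8 arrays and IRF8 on 3, while CLEC4C, LILRA4 and IL3RA were on none. Of 9 leukocyte markers on the array 5 were above background on any array, CD68 and FCGR3A on all 8, and PTPRC, CD3D, CD3E and CSF1R on none; the mean signal over the probes of this list was 191 to 198 in SKOV3 at 46 °C, 171 to 172 in SKOV3 at 37 °C, 191 to 248 in A2780 at 46 °C and 245 to 276 in A2780 at 37 °C. All 6 fibroblast markers were above background on some array. Their mean signals were 131 to 138 in SKOV3 at 46 °C and at 37 °C. In A2780 they were 1537 to 1782 at 46 °C and 1965 to 2316 at 37 °C. The means of both lists are of the linear signal before normalization, so they also carry the brightness of the arrays. In A2780 the upper quartile of the signal was 243 and 317 at 37 °C, against 215 and 181 at 46 °C. LUM (-5.87) and COL3A1 (-4.18) were lower in SKOV3 at 37 °C, and DCN, not above background there, at least 53.3-fold lower. With heat COL1A1 rose in A2780 (0.84 ± 0.14, adjusted p = 0.00356), and the other fibroblast markers were not called there. In SKOV3 COL1A1 changed by 0.27 (adjusted p = 0.406). The part of these differences in the interferon-stimulated genes was not tested.

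Over the 8 arrays the genes whose values ran most like the mean of the 7 members, each centred on its own mean, were DLK2, ATP6V0E2, ANKRD1, SH3GLB2 and NEFH, with Pearson's r between 0.996 and 0.997. The arrays fall into a cluster for each line, so these coefficients mostly describe the difference between the lines and carry no test. ANKRD1 had means of 11.34 in SKOV3 at 46 °C, 12.37 in SKOV3 at 37 °C, 6.24 in A2780 at 46 °C and 6.02 in A2780 at 37 °C. By the same measure IFITM1 had r = 0.994, IFI6 0.984 and ISG15 0.973 with the mean they belong to, while IFIT2 had 0.37 and IFIT1 -0.026.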

How the data were processed

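Biotin-labelled RNA of 8 samples was measured on Illumina BeadChips, per the labels' protocols; the extraction protocol speaks of tissues, whereas the other labels name cell lines. The deposited signal table holds the linear intensity of 47231 probes per array, exported by the authors with BeadStudio per the submitters' processing notes; it has no detection p-values. A second deposited table holds log2 values processed by the authors, which differed by at most 0.025 from quantile-normalized log2 signals; the steps are not given in the sources used here.

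Intensities were background-corrected (normexp on the signal alone, offset 50), quantile-normalized and put on the log2 scale with limma 3.58.1 in R 4.3.3. Probes with 1 gene symbol in the platform annotation (30113) and a mean above the 40th percentile (6.16) were kept, and a gene was represented by its brightest probe, for 14189 genes. Background was, per array, the 99th percentile of a normal curve around the most frequent log2 signal, whose width came from the dimmer values; where 1 group was not above it, the fold is a lower bound.

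With limma (lmFit and eBayes), 4 group means were estimated from all 8 arrays (4 residual and 9.39 prior degrees of freedom), two-sided, with Benjamini-Hochberg adjustment over all genes and a threshold of 0.05, for 5 comparisons: heat in each line, the difference of these responses, and the lines at each temperature. Every member was named; of each pathway list, up to 4 called genes with the largest change, and further genes (IRF1, IRF9 with heat) after their values were seen. The 9 genes, the lists and the tests were chosen with earlier results of these data known. No columns were left unused (0). Alternatives tried were median scaling, unnormalized arrays, a floor of 16, the deposited log2 values, filters at none and the 60th percentile, a trended robust prior, a replicate block, array weights, only the arrays compared, other probes, and each array left out. The procedure was tested on simulated data with 2 kinds of spread between arrays. With spreads drawn from limma's prior, false calls stayed within the limit set, which allowed a larger share of the calls than 0.05. With each gene's posterior variance, tried before it, they exceeded that limit. Calls close to the threshold may therefore hold more false ones than the threshold implies. The number of arrays, 2 per group, limits the precision.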

Additional observations from a re-analysis of the deposited data

Results flagged for a closer look

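By the probe that stood for the gene, the heated arrays of IFIT2 and IFI6 lay on opposite sides of the controls in the 2 lines, with no overlap. With 2 arrays per group, lack of overlap is not a test. It also held where limma called no change, as for IFI6 in SKOV3 (-0.10, adjusted p = 0.788). The share of all genes without overlap was not counted, so no count of members is given. For IFIT2 both heated arrays lay below both controls in SKOV3 (change -0.28) and above them in A2780 (change 0.67); the difference of the responses was -0.96, with an adjusted p of 0.0762 in the test of the difference itself (limma), which it did not pass. It passed without A2780 37 °C replicate 1 (-1.08, adjusted p = 0.0343), and its adjusted p ran up to 0.477 over the other alternatives. For IFI6 the changes were -0.10 in SKOV3 and 0.27 in A2780, and the difference, -0.37, had an adjusted p of 0.603. The other IFI6 probe overlapped between the temperatures in both lines (-0.16 in SKOV3 and 0.41 in A2780), and with median scaling the A2780 change of IFI6 was -0.23, the same sign as in SKOV3. Of all genes, 0.0987% passed the test of the difference.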

How the results depend on the processing

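Of the single-gene values over all alternatives, 624 kept direction and side of the threshold, 19 no longer passed, 6 newly passed and 29 changed sign, 25 of these in values called in neither setting. Equal replicate numbers were not taken as pairs: deviations of equally numbered samples correlated across genes at -0.25 between temperatures in SKOV3 and 0.073 in A2780, and at 0.29 between the lines at 46 °C and 0.18 at 37 °C, and with a replicate block the counts of members called were unchanged, at 1 for heat in SKOV3, 2 for heat in A2780, 0 for the difference, 6 between the lines at 37 °C and 5 at 46 °C.

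Leaving out each array in turn gave 1 to 2 members called for heat in SKOV3, 1 to 3 in A2780 (3 with HERC5, 0.68, adjusted p = 0.0472, without A2780 37 °C replicate 1), 0 to 1 for the difference of responses, 6 between the lines at 37 °C and 4 to 5 at 46 °C (4 where IFIT3 no longer passed, without SKOV3 46 °C replicate 1, A2780 46 °C replicate 1 or A2780 46 °C replicate 2); a group of 1 array was assumed to vary like the others. Array weights gave 2 in SKOV3 (IFIT3, -0.50, adjusted p = 0.0489). In these fits the heat change ranged over -0.037 to 0.21 (ISG15) and -0.082 to 0.36 (HERC5) in SKOV3 and -0.044 to 0.10 (ISG15) and -0.058 to 0.063 (IFITM1) in A2780, the difference of responses over -0.066 to 0.19 (ISG15) and -0.18 to 0.047 (IFIT1), and IFIT1 between the lines at 37 °C over -0.21 to 0.024.

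Median scaling put the median of all genes at -0.28 for heat in A2780, and the changes at -0.53 (ISG15), -0.057 (HERC5), -0.29 (IFITM1) and -0.23 (IFI6); with no between-array normalization the median was -0.39 and the changes -0.64, -0.16, -0.39 and -0.33. There 189 of 4584 and 128 of 5311 genes called were higher, against 316 of 641, and 0 members were higher and 2 lower. For the difference of responses these scalings gave 0.19 and 0.30 (HERC5), 0.43 and 0.54 (IFIT1), 0.10 and 0.22 (IFI6) and, with no normalization, 0.071 (IFITM1). Between the lines at 37 °C, 794 of 5609 and 563 of 6033 genes called were higher, against 2210 of 4163, with 5 members higher and 1 lower. Under the same 2 scalings IFIT2 no longer passed for heat in A2780 (0.19 and 0.088) or between the lines at 37 °C (0.18 and 0.056), and IFIT3 no longer passed at 46 °C (0.44 and 0.43). The other IFIT1 probe gave 0.46 and 0.52 between the lines at 37 °C and 46 °C and 0.059 for the difference of responses, and another IFIT3 probe gave 0.16 for that difference. By other probes, IFIT3 between the lines (at both temperatures) and IFI6 at 46 °C did not pass. The fall of IFIT1 with heat passed in both lines under every alternative but that probe. Probes near background, as of IFIT3, MX1 and IFI27, limit what these arrays can show.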
